A study of Homo sapiens with 18 samples.

Results

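The genes described here encode adenosine triphosphate (ATP)-dependent chromatin remodellers, the enzymes and accessory subunits that slide, evict or exchange nucleosomes. They are 44 genes taken by their symbol in the platform annotation, of 19775 genes that the array measures with a probe set of 1 symbol only, and they comprise SWI/SNF ATPases and subunits, CHD proteins, ISWI ATPases and their partners, members of the INO80 family and other SNF2-type enzymes. All 148 of their probe sets were followed, between 1 and 9 for a gene, and 3 more that carry several symbols were not used. The cells were SH-SY5Y, an established human neuroblastoma line, made neuron-like with retinoic acid at 10 µM for 7 days and then kept 24 h without it. They received cocaine at 5 µM or 1 µM for 30 min, or the same changes of medium with 0 µM cocaine (untreated cells), and RNA was taken 6 or 24 h later. Each of the 18 Affymetrix U133 Plus 2.0 arrays held a pool of 3 dishes, with 3 arrays for each dose and time. The titles call the pools biological replicates, and each pooled dishes of its own. Nothing used here says whether those dishes were grown and treated on separate occasions, so p-values measure the spread between pools. Doses were taken from the sample titles, since the treatment field of the 5 µM arrays also calls them a control.

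Nucleosomes block access to DNA, and remodellers use ATP to move them. SWI/SNF complexes (BAF, PBAF and the smaller ncBAF) open chromatin at enhancers and promoters and exchange subunits as neural progenitors become neurons. CHD proteins include the motor of the repressive NuRD complex, ISWI enzymes space nucleosomes evenly, and INO80-type complexes exchange histone variants such as H2A.Z.

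Values are log2 signals after robust multi-array averaging (RMA), so each belongs to its own probe set. Levels of different probe sets were compared only to pick the brightest of a gene and for the differences within each array described below. A probe set was tested at a time if its mean over the 9 arrays exceeded log2(40), or 5.32. At 6 h, 120 member probe sets passed, and at 24 h 122 did, with all 44 genes covered at both times and 28 and 26 probe sets left below the minimum. The brightest probe set of a gene is the one with the highest mean over all 18 arrays, and the others are given apart. The suffix x_at marks probes that can bind other transcripts, and the brightest probe sets of SMARCA2, INO80 and DPF1 carry it. A probe set was called when its limma p-value, adjusted by the Benjamini-Hochberg procedure over all 22455 probe sets tested at 6 h or all 24307 at 24 h, was under 0.10.

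The untreated arrays of 6 h were not alike in measures outside the remodellers. CYP26A1, which encodes a retinoic acid-degrading enzyme and is itself induced by retinoic acid, had log2 signals of 5.01, 10.69 and 10.99 in untreated arrays 1, 2 and 3, 4.95 to 5.61 in 1 µM cells and 5.20 to 5.53 in 5 µM cells. The summed signal of all 4 retinoic acid response genes listed was 9.72, 13.21 and 13.17 on the log2 scale in untreated arrays 1, 2 and 3, 9.56 to 9.73 in 1 µM cells and 9.59 to 9.73 in 5 µM cells. Untreated arrays 2 and 3 thus stood apart and untreated array 1 lay with the treated arrays. At 24 h untreated array 3 stood apart in the same genes, less widely: CYP26A1 was 4.92 to 6.31 in 5 µM cells and 5.12 to 5.70 in 1 µM cells, against 5.40, 6.04 and 9.55 in untreated arrays 1, 2 and 3, and the summed signal was 9.88 to 10.68 in 5 µM cells and 10.08 to 10.42 in 1 µM cells, against 10.11, 10.74 and 12.24. The difference between the 3′ and 5′ control probe sets of ACTB, which tracks RNA integrity and labelling, was 0.49 to 0.54 in 5 µM cells, against 0.55, 1.12 and 0.89 in untreated arrays 1, 2 and 3. A labelling control minus a hybridisation control (bioD minus cre) was −1.55 to −1.37 in 5 µM cells and −1.04 to −0.93 in untreated cells. The summed signal of 10 adrenergic and neuronal genes was 14.96 to 15.02 in 5 µM cells and 14.99 to 15.01 in untreated cells, with 9 of them above the signal minimum and TH, the dopamine-synthesis enzyme, below it. The summed signal of 10 genes of the mesenchymal, substrate-adherent cell state was 14.04 to 14.08 in 5 µM cells and 13.88 to 14.07 in untreated cells, with YAP1 and PRRX1 below the minimum. Single genes within each sum moved in opposite directions. At 6 h, mean signals in 5 µM and untreated cells were 12.49 and 11.85 for VIM, but 10.98 and 11.33 for NOTCH2. Among the adrenergic and neuronal genes they were 11.10 and 11.61 for PHOX2A, but 12.45 and 12.33 for ISL1. The part of these differences in the results below was not tested. In these bulk pools, fewer cells of a type and less RNA per cell cannot be told apart.

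Of the 8 genes called at 6 h, 4 have a promoter in the RefSeq table used here (GRCh38.p14, 250 bases before to 50 after a start), and these are printed so that the sequence in front of the genes that moved can be read. EP400 and CHD4 each had a probe set that rose, and BAZ2B and SMARCA5 each had one that fell. Each is given 5′ to 3′ on the strand of its gene. Capitals mark the GC box (GGGCGG, or CCGCCC on the opposite strand), which Sp1-type factors bind, and in SMARCA5 also the core element of retinoic acid receptors (AGGTCA, here TGACCT on the opposite strand).
EP400, chr12:131949692-131949991, + strand: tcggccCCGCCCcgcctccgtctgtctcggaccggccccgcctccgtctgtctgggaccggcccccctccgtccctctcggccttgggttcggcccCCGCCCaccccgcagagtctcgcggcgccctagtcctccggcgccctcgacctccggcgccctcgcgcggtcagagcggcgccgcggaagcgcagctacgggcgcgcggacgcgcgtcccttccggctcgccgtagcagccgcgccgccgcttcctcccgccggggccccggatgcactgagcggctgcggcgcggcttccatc
CHD4, chr12:6606402-6606701, − strand: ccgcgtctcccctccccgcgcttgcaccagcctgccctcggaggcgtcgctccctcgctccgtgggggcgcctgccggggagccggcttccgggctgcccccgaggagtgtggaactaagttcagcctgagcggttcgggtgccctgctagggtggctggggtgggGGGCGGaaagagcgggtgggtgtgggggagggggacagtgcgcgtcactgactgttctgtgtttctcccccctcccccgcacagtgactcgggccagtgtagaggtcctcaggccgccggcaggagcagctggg
BAZ2B, chr2:159712393-159712692, − strand: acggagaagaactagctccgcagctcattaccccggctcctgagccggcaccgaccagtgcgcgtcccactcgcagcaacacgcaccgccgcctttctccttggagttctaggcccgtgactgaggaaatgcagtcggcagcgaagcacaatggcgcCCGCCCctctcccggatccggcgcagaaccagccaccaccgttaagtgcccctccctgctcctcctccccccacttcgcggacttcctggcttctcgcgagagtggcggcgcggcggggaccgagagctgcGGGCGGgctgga
SMARCA5, chr4:143513452-143513751, + strand: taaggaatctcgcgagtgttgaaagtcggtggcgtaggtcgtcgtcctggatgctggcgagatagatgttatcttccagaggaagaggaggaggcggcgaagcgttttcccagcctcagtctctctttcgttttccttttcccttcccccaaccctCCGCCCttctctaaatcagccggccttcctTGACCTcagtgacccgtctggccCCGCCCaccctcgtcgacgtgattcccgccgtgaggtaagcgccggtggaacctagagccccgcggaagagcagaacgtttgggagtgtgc
The 4 windows hold 51 CpG dinucleotides in EP400, 24 in CHD4, 31 in BAZ2B and 25 in SMARCA5, against a median of 14 over all 35116 promoters of the table and of 26 over the 55 promoters of the 35 members that it covers. A GC box on either strand was present in 45.0% of all promoters and 70.9% of member promoters. The element AGGTCA was present in 13.8% of all promoters and 9.09% of member promoters, CCAAT in 34.6% and 27.3%, the E-box CACGTG in 7.26% and 3.64%, and the ETS site CCGGAAGT in 4.14% and 3.64%. BAZ2B has a second start in the table (chr2:159615516-159615815, − strand), which is not printed and holds 20 CpG dinucleotides and a GC box. All 4 windows printed hold a GC box, whichever way the probe set of the gene moved.

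At 6 h after 5 µM cocaine, 8 of 120 member probe sets were called against untreated cells, 4 higher and 4 lower (limma, adjusted p under 0.10). That is 6.67% of them, against 2.98% of all 22455 probe sets tested, of which 1.57% were higher and 1.42% lower. The 4 that rose belong to EP400, SMARCC1, BPTF and CHD4, and none is the brightest probe set of its gene. The 4 that fell belong to SMARCC2, ACTL6A, BAZ2B and SMARCA5, and each is the brightest of its gene. Among brightest probe sets, 4 of 44 members fell (9.09%), against 1.58% of all brightest probe sets, and no member rose, against 0.519%. Among the other probe sets, 4 of 76 members rose (5.26%), against 2.91% of all such probe sets, and no member fell, against 1.2%.

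Sizes were small. The member changes ranged from −0.37 to 0.93 on the log2 scale, with a median of −0.02, as over all probe sets tested. The median over the 44 brightest was −0.07, against −0.03 over all brightest probe sets. Of the 44, 31 were below 0, as were 7305 of all 11940 brightest probe sets tested. In 13 of the 44 brightest, or 29.5%, all 5 µM arrays lay below all untreated arrays, against 15.6% of all brightest probe sets, and in 1, SMARCD2, or 2.27%, they lay above, against 4.91%. Over all member probe sets, such separation was found downward in 15.8%, against a background of 13.1%, and upward in 10%, against 8.09%. Same-numbered pools of different doses deviated together, and with the pool number as a block 13 member probe sets were higher and 15 lower, or 10.8% and 12.5%, against 7.75% and 10.9% of all probe sets tested (18.6% in all). These lie in 11 genes with a higher and 14 with a lower probe set, of which SMARCA2 and SMARCE1 had both. All 13 that were higher with the block were again not the brightest of their gene, or 17.1% of the 76 others, against 12.3% of all such probe sets, where 4.1% of all brightest probe sets were higher. Of the 15 that were lower, 10 were the brightest, or 22.7% of the 44, against 12.9% of all brightest probe sets. The calls rested on few arrays, since 0 member probe sets were called without 5 µM array 2 or array 3, only EP400 without 5 µM array 1, untreated array 2 or untreated array 3, and 7 higher and 9 lower without untreated array 1. The calls among all 22455 probe sets moved as well: they were 0 without 5 µM array 2, 1 without array 3 and 87 without array 1, and 2432 (10.8%, against 13.3% of members), 29 and 66 without untreated arrays 1, 2 and 3. The 1 µM arrays enter this comparison through the shared estimate of the spread, and through the mean over 9 arrays that set which probe sets were tested. Without 1 µM arrays 1, 2 and 3 in turn, 3, 2 and 4 member probe sets were higher and 4, 0 and 1 lower. These are 5.83%, 1.67% and 4.17% of members, against 2.77%, 1.04% and 1.68% of all. Without untreated arrays 2 and 3 together, 0 member probe sets were called by limma and 21 had an unadjusted p under 0.05, or 17.5%, against 12.8% of all probe sets, of which 0 were called.

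**Figure D1:**
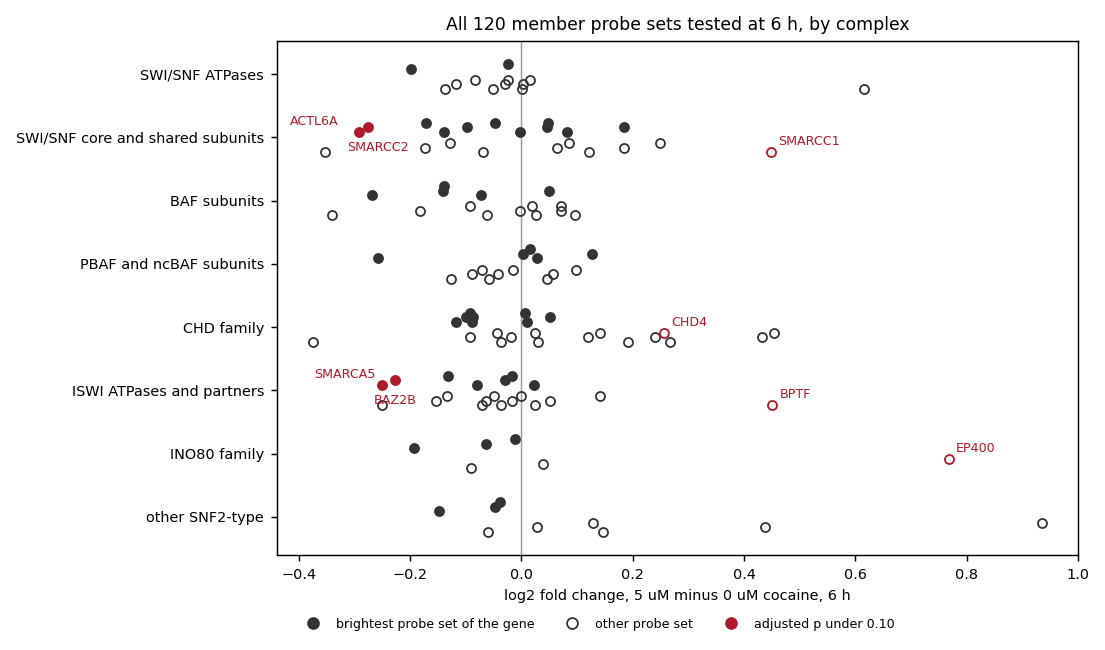
Change in log2 signal (x axis, 5 µM minus 0 µM cocaine at 6 h) of the 120 member probe sets tested, in rows by complex, with filled circles for the brightest probe set of a gene, open circles for its others and red for adjusted p under 0.10 (limma). The 4 red circles left of 0 are filled and the 4 right of 0 are open. Most filled circles (31 of 44) lie left of 0, as did 7305 of all 11940 brightest probe sets tested.

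The catalytic motors of SWI/SNF gave no call. SMARCA4, which encodes BRG1, had log2 signals of 10.91, 10.84 and 10.88 in 5 µM cells, against 10.92, 10.84 and 10.94 in untreated cells in its brightest probe set, 208794_s_at. The arrays overlapped, and the change was −0.02 with a 95% interval of −0.14 to 0.09. SMARCA2, which encodes the alternative motor BRM, differed by −0.20 in its brightest probe set, 217707_x_at, whose suffix marks probes that can bind other transcripts (adjusted p = 0.467 by limma, 0.0955 with the block). Its probe set 212257_s_at, which had 5.96, 6.12 and 5.55 in 5 µM cells and 5.78, 5.04 and 4.96 in untreated cells, differed by 0.61 the other way (adjusted p = 0.285, 0.0787 with the block). The signal of this second probe set lies close to the minimum for testing, and its arrays overlapped.

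Among the 11 genes for core and shared SWI/SNF subunits, 1 of 21 probe sets rose and 2 fell. SMARCC1 and SMARCC2 encode the paired scaffold proteins BAF155 and BAF170 around which the complex is built. SMARCC2 had log2 signals of 9.40, 9.35 and 9.28 in 5 µM cells, against 9.59, 9.66 and 9.61 in untreated cells, in its brightest probe set, 201321_s_at. All treated arrays lay below all untreated ones, and the probe set fell by 0.28 ± 0.05 (SE) on the log2 scale, a signal that fell by 17.4% (limma adjusted p = 0.0646). Its other probe sets, 201320_at and 1561973_at, differed by 0.06 and −0.17 without a call. SMARCC1 had 10.44, 10.39 and 10.33 in 5 µM cells, against 10.12, 9.81 and 9.88 in untreated cells, in probe set 201072_s_at. All treated arrays lay above all untreated ones, by 0.45 ± 0.08, a rise of 36.4% (adjusted p = 0.0575), and the highest untreated array was array 1. The brightest SMARCC1 probe set, 201074_at, was not called: it had 10.55, 10.56 and 10.56 in 5 µM cells and 10.60, 10.56 and 10.65 in untreated cells, and its change of −0.05 had a 95% interval of −0.16 to 0.06. Its remaining probe sets, 201073_s_at and 201075_s_at, differed by 0.18 and 0.12 without a call. ACTL6A, an actin-related subunit of SWI/SNF in progenitors and also of the INO80 and EP400 complexes, had 10.26, 10.18 and 10.24 in 5 µM cells, against 10.53, 10.54 and 10.50 in untreated cells. It fell by 0.29 ± 0.07, and its signal fell by 18.4% (adjusted p = 0.0977), with no overlap. Its neuronal counterpart ACTL6B differed by −0.14 in the same direction without a call (adjusted p = 0.287). SMARCE1, the BAF57 subunit, had 11.63, 11.54 and 11.54 in 5 µM cells and 11.74, 11.72 and 11.75 in untreated cells in its brightest probe set, 211988_at. The difference of −0.17, with no overlap, was called only with the block (adjusted p = 0.136, 0.0558 with the block). Its other probe sets did not go one way: 236016_at differed by −0.35 (adjusted p = 0.12, 0.0305 with the block), 229511_at by 0.25 (0.272, 0.0444 with the block) and 211989_at by 0.08. The brightest probe sets of SMARCB1, SMARCD2 and SMARCD3, further core subunits, differed by 0.05, 0.05 and −0.0032. SMARCD1 differed by −0.10 there, and the small subunits BCL7A and BCL7C by 0.18 and 0.08, none with a call.

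Subunits that define BAF, PBAF and ncBAF gave no call in 29 probe sets tested, 15 of BAF and 14 of PBAF and ncBAF. ARID1A and ARID1B encode the DNA-binding subunits of BAF, which exclude each other. ARID1B had 10.10, 9.81 and 9.85 in 5 µM cells, against 10.22, 10.17 and 10.18 in untreated cells, in its brightest probe set, 225181_at, a difference of −0.27 (adjusted p = 0.155, 0.0815 with the block). ARID1A probe set 210649_s_at had 6.81, 6.66 and 6.81 in 5 µM cells and 7.06, 7.03 and 7.21 in untreated cells, a difference of −0.34 (adjusted p = 0.12, 0.024 with the block), whereas its brightest, 218917_s_at, differed by −0.14 (adjusted p = 0.373). In ARID1B 225181_at and ARID1A 210649_s_at the groups did not overlap. PHF10, a PBAF subunit found in progenitors, differed by −0.26 (adjusted p = 0.3, 0.0532 with the block), and its arrays overlapped. PBRM1, which defines PBAF with several bromodomains, differed by 0.13, and ARID2, BRD7 and BRD9 by 0.02, 0.0021 and 0.03, in their brightest probe sets. Of the remaining BAF subunits, the histone readers DPF1 and DPF2 differed by −0.14 and 0.05 and SS18 by −0.07 in theirs, and DPF1 206531_at differed by −0.18, called only with the block (adjusted p = 0.183 by limma, 0.063 with the block).

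In the CHD family, 1 of 23 probe sets rose and none fell. CHD4 is an ATPase of NuRD, which couples remodelling to histone deacetylation. Its probe set 201183_s_at had 9.68, 9.72 and 9.79 in 5 µM cells, against 9.56, 9.41 and 9.44 in untreated cells, and rose by 0.26 ± 0.06, or 19.4% (limma adjusted p = 0.0938). The groups did not overlap, but the lowest treated and highest untreated arrays lay close together. Probe set 201182_s_at of the same gene differed by 0.43 and was called only with the block (adjusted p = 0.17, 0.0849 with the block). The brightest CHD4 probe set, 201184_s_at, had 9.95, 9.99 and 10.01 in 5 µM cells and 9.90, 10.04 and 9.99 in untreated cells, with an interval of −0.11 to 0.12 around its change. CHD9 probe set 235388_at had 7.24, 7.33 and 7.24 in 5 µM cells, against 7.01, 6.57 and 6.86 in untreated cells, a difference of 0.45 (adjusted p = 0.115, 0.0653 with the block). CHD6 probe set 225026_at went the other way, with 6.87, 6.95 and 7.03 in 5 µM cells and 7.24, 7.45 and 7.27 in untreated cells, a difference of −0.37 (adjusted p = 0.111, 0.0268 with the block). Neither of these overlapped. The brightest probe sets of the 8 CHD genes differed by −0.12 to 0.05. CHD7 and CHD8, both linked to neurodevelopmental disorders, differed by −0.12 and −0.10 there, CHD3, another NuRD motor, by −0.09, and CHD1 and CHD2 by 0.01 and 0.05.

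ISWI ATPases and their partners had 1 probe set that rose and 2 that fell, of 20. SMARCA5, the ISWI motor SNF2H, had 10.66, 10.55 and 10.68 in 5 µM cells, against 10.89, 10.89 and 10.85 in untreated cells, in its brightest probe set, 213251_at. It fell by 0.25 ± 0.06, and its signal fell by 15.9% (limma adjusted p = 0.0985), with no overlap. Its other probe sets, 202303_x_at and 213859_x_at, whose probes can bind other transcripts, differed by −0.04 and 0.02 without a call. Its paralogue SMARCA1, or SNF2L, differed by 0.02 in its brightest probe set. BAZ2B, a bromodomain partner of ISWI motors, had 9.80, 9.78 and 9.76 in 5 µM cells, against 9.93, 10.02 and 10.07 in untreated cells, in probe set 203080_s_at. It fell by 0.23 ± 0.05, and its signal fell by 14.6% (adjusted p = 0.0977), and all treated arrays lay below all untreated ones. BPTF, the large subunit of NURF that reads trimethylated lysine on histone H3, rose in 1 probe set. That probe set, 231953_at, had 6.25, 6.26 and 6.36 in 5 µM cells, against 5.96, 5.65 and 5.91 in untreated cells, a rise of 0.45 ± 0.09, or 36.7% (adjusted p = 0.0638). The brightest BPTF probe set, 207186_s_at, differed by −0.02 with an interval of −0.14 to 0.11. Its remaining probe sets, 209271_at, 230056_at and 232909_s_at, differed by −0.05, −0.06 and −0.15, and none was called without the block. BAZ1B and BAZ1A, partners of SNF2H, differed by −0.03 and −0.08, and BAZ2A, of the nucleolar remodelling complex, by −0.13.

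The largest called change was in EP400, the motor of the complex that pairs H2A.Z exchange with histone acetylation. Its probe set 230629_s_at had 7.43, 7.30 and 7.42 in 5 µM cells, against 6.48, 6.64 and 6.73 in untreated cells. All treated arrays lay above all untreated ones, by 0.77 ± 0.08, or 70.3% (limma adjusted p = 0.0176, 0.0119 with the block). The brightest EP400 probe set, 212375_at, had 8.61, 8.54 and 8.62 in 5 µM cells and 8.54, 8.63 and 8.79 in untreated cells, with an interval of −0.22 to 0.09 around its change of −0.06. The third, 212376_s_at, differed by 0.04. SRCAP, the other H2A.Z-depositing motor, differed by −0.19 without overlap (adjusted p = 0.194, 0.0542 with the block), and INO80 by −0.01.

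Of the remaining SNF2-type enzymes, none of 9 probe sets was called. ATRX, which deposits histone H3.3 at repeats, had the largest difference of any member in probe set 211022_s_at, with 7.29, 6.90 and 6.71 in 5 µM cells and 6.24, 6.12 and 5.74 in untreated cells. The groups did not overlap, but each was widely spread, and the difference of 0.93 ± 0.33 was called only with the block (adjusted p = 0.207 by limma, 0.0337 with the block). The brightest ATRX probe set, 208861_s_at, differed by −0.05. HELLS, a remodeller needed for DNA methylation at repeats, differed by −0.04 in its brightest probe set and by 0.44 in 227349_at (adjusted p = 0.264, 0.088 with the block). SMARCAD1, which acts behind the replication fork, differed by −0.15 without overlap (adjusted p = 0.224, 0.0814 with the block).

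**Figure D2:**
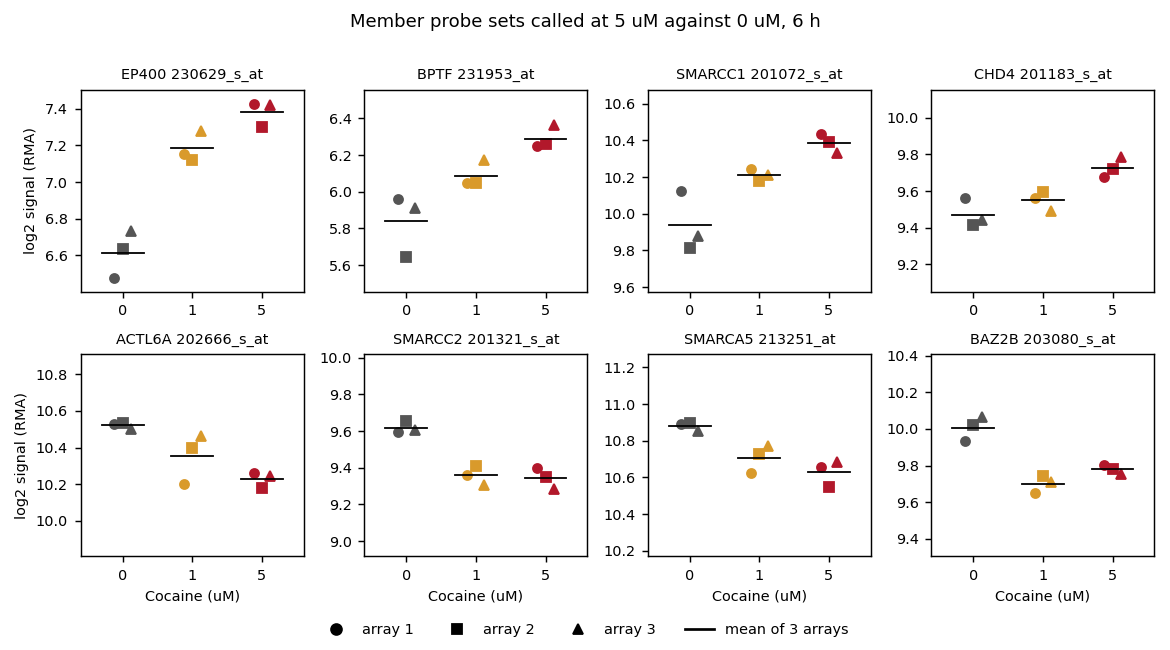
Log2 signal (y axis, RMA) of the 8 member probe sets called at 6 h, by cocaine dose (x axis, µM), with 1 symbol per array (circle, square and triangle for arrays 1, 2 and 3) and a line at the mean of 3. The 4 probe sets in the upper row are higher and the 4 in the lower row lower in all 5 µM arrays than in all untreated arrays, and EP400 has the widest gap, 7.30 to 7.43 against 6.48 to 6.73.

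In each gene with a rising probe set the 95% interval of the brightest probe set spanned 0. The difference between both within each array is given as a description only, since each pair was chosen because one probe set was called and the other was not. For EP400 this difference was −1.19, −1.24 and −1.20 in 5 µM cells, against −2.06, −1.99 and −2.06 in untreated cells, with no overlap. For SMARCC1 it was −0.11, −0.17 and −0.23 in 5 µM cells, against −0.48, −0.75 and −0.77 in untreated cells. For BPTF it was −4.50, −4.54 and −4.35 in 5 µM cells and −4.81, −5.18 and −4.82 in untreated cells. In these genes the treated arrays stood apart from the untreated ones, and which probe set follows the whole transcript was not tested. For CHD4 it was −0.28, −0.26 and −0.22 in 5 µM cells and −0.34, −0.62 and −0.55 in untreated cells, a smaller gap. The ACTB measure of RNA integrity and labelling also separated untreated arrays 2 and 3 (1.12 and 0.89) from the 5 µM arrays (0.49 to 0.54), while untreated array 1 (0.55) lay close to them. In bioD minus cre, however, untreated array 1 (−1.04) stood apart from the 5 µM arrays (−1.55 to −1.37). Against untreated array 1 alone the changes of the 8 called probe sets were 0.91 for EP400, 0.33 for BPTF, 0.26 for SMARCC1, 0.17 for CHD4, −0.15 for BAZ2B, −0.25 for SMARCC2, −0.26 for SMARCA5 and −0.30 for ACTL6A. All kept their direction, none was called, and the part of RNA integrity and labelling in them was not tested.

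**Figure D3:**
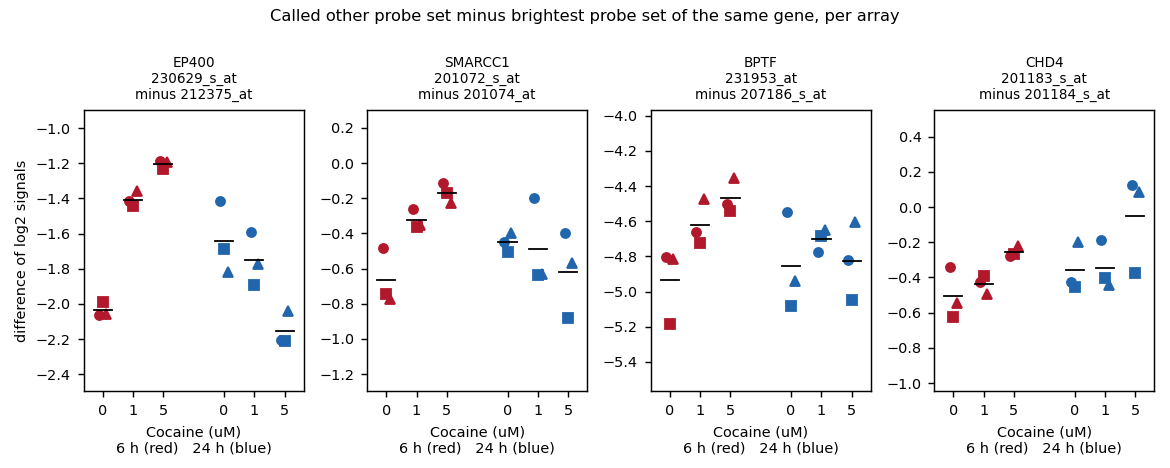
Log2 signal of the called probe set minus that of the brightest probe set of the same gene (y axis), per array, by cocaine dose (x axis, µM) at 6 h (red) and 24 h (blue), for EP400, SMARCC1, BPTF and CHD4, with symbols for arrays 1 to 3 as circle, square and triangle and a line at the mean of 3. For EP400 at 6 h the values are −1.24 to −1.19 at 5 µM against −2.06 to −1.99 at 0 µM, and at 24 h the 5 µM arrays are the lowest, −2.21 to −2.04.

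After 1 µM cocaine, no member probe set was called at 6 h, and neither was any of all 22455 (background 0%, limma). An unadjusted p under 0.05 was found for 17 member probe sets, or 14.2%, against 14.3% of all. All 1 µM arrays lay below all untreated arrays in 12.5% of member probe sets, against a background of 10.2%, and above in 4.17%, against 7.27%. With the block, 4 member probe sets were higher and 10 lower, or 3.33% and 8.33%, against 5.11% and 7.44% of all. EP400 probe set 230629_s_at had 7.16, 7.12 and 7.28 in 1 µM cells against the untreated values above, a difference of 0.57 (adjusted p = 0.145, 0.0278 with the block). BAZ2B had 9.65, 9.74 and 9.71 in 1 µM cells and differed by −0.31 (adjusted p = 0.145, 0.0418 with the block). SMARCC2 had 9.36, 9.41 and 9.31 in 1 µM cells and differed by −0.26 (adjusted p = 0.157, 0.0436 with the block). These 3 stood outside the untreated range in all 1 µM arrays. The same held for SMARCC1 201072_s_at, BPTF 231953_at, ACTL6A and SMARCA5, with differences of 0.27, 0.25, −0.17 and −0.17, while CHD4 201183_s_at differed by 0.08 and overlapped. The 1 µM and 5 µM comparisons share their untreated arrays, so the values are given side by side only. The largest downward differences at 1 µM were −0.43 in CHD6 225026_at and −0.39 in ARID1A 210649_s_at, each called only with the block (adjusted p = 0.162 and 0.164 by limma, 0.0418 and 0.0405 with the block).

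Between 5 µM and 1 µM at 6 h no member was called, with or without the block, and neither was any other probe set (background 0%, limma). An unadjusted p under 0.05 was found for 16 member probe sets, or 13.3%, against 6.45% of all. All 5 µM arrays lay above all 1 µM arrays in 17.5% of member probe sets, against 6.26% of all, and below in 5.83%, against 7.28% of all. Among probe sets other than the brightest, the share above was 23.7%, against 10.6% of all such probe sets. They include all 3 ATRX probe sets that are not its brightest, of which 211022_s_at differed by 0.94 and 208859_s_at by 0.30, together with HELLS 227349_at (0.59) and SMARCA2 212257_s_at (0.91). ATRX 211022_s_at had 7.29, 6.90 and 6.71 in 5 µM cells, against 6.51, 6.39 and 5.18 in 1 µM cells, so 1 µM array 3 stood far below the rest. EP400 230629_s_at differed by 0.20 (adjusted p = 0.732). The ACTB difference between 3′ and 5′ also separated these groups, with 0.49 to 0.54 in 5 µM cells and 0.60 to 0.72 in 1 µM cells. In bioD minus cre they overlapped, with −1.55 to −1.37 and −1.44 to −1.41. The part of these measures in the values was not tested.

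At 24 h no member probe set was called at either dose or between doses, with or without the block (limma). In all 24307 probe sets 0.0123% were called at 5 µM against untreated cells, 0% at 1 µM against untreated cells and 0.00823% between the doses. An unadjusted p under 0.05 was found for 20 member probe sets at 5 µM, or 16.4%, against 7.2% of all, for 5 at 1 µM, or 4.1%, against 3.37%, and for 13 between doses, or 10.7%, against 6.12%. At 5 µM, 10 of the 44 brightest probe sets, or 22.7%, had all treated arrays above all untreated ones, against 6.51% of all brightest probe sets. Over all member probe sets this share was 13.9%, against a background of 5.94%, and the share with all treated arrays below was 4.92%, against 4.51%. The smallest p was for SMARCA4 probe set 208793_x_at, again with probes that can bind other transcripts, with 7.62, 7.44 and 7.65 in 5 µM cells, against 7.33, 7.22 and 7.22 in untreated cells. Its difference was 0.31 (adjusted p = 0.395). BCL7A, a small SWI/SNF subunit, had 7.43, 7.84 and 7.57 in 5 µM cells and 8.01, 8.03 and 8.02 in untreated cells, a difference of −0.40 (adjusted p = 0.525) with no overlap, and its relative BCL7C differed by 0.17 (adjusted p = 0.525). Array 2 of the 5 µM group often stood apart, with an EP400 212375_at signal of 8.85 where arrays 1 and 3 had 9.35 and 9.32, and the ACTB difference between 3′ and 5′ was lower on that array too. It was 0.69 to 1.03 in 5 µM cells of 24 h, against 0.49 to 0.65 in untreated cells, and its part in these values was not tested. Without untreated array 3, which stood apart in retinoic acid response genes, 0 member probe sets were called by limma at 5 µM and 23 had an unadjusted p under 0.05, or 18.9%, against 6.25% of all.

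Whether the response to 5 µM differed between 6 h and 24 h was tested in 1 limma model of both times. The change differed for 7 of 120 member probe sets, or 5.83%, against 4.21% of all 22358 probe sets tested, and 23, or 19.2%, were called with the block, against 15.9% of all. Without untreated array 3 of 24 h, 10 were called, or 8.33%, against 3.23% of all, and 6 of the 7 kept their call, SMARCC1 201074_at being the exception (adjusted p = 0.148). Without untreated arrays 2 and 3 of 6 h, 1 was called, EP400 230629_s_at (adjusted p = 0.074), or 0.833%, against 1.48% of all. EP400 230629_s_at had changed by 0.77 at 6 h and by −0.11 at 24 h, where it had 7.14, 6.64 and 7.28 in 5 µM cells and 7.07, 7.18 and 7.14 in untreated cells, and the difference of the changes was 0.88 (adjusted p = 0.0215). SMARCC2 201321_s_at, which fell at 6 h, had 9.68, 9.83 and 9.70 in 5 µM cells of 24 h, against 9.42, 9.64 and 9.66 in untreated cells, and its changes of −0.28 and 0.16 differed by −0.44 (adjusted p = 0.0293). Neither was called at 24 h alone. The other EP400 probe sets went the opposite way to 230629_s_at, without a call. Their changes differed by −0.46 in the brightest, 212375_at, and by −0.29 in 212376_s_at (adjusted p = 0.245 and 0.329). ARID1A 210649_s_at had 7.81, 7.28 and 7.79 in 5 µM cells of 24 h, against 7.11, 7.10 and 7.28 in untreated cells, and its changes of −0.34 at 6 h and 0.46 at 24 h differed by −0.80 (adjusted p = 0.0416). ARID1A 212152_x_at also differed, by −0.41 (adjusted p = 0.092). CHD9 235388_at had 7.35, 7.28 and 7.27 in 5 µM cells of 24 h, against 7.43, 7.76 and 7.37 in untreated cells, and its changes of 0.45 and −0.22 differed by 0.67 (adjusted p = 0.0479). SMARCA4 215714_s_at and SMARCC1 201074_at, both near 0 at 6 h, differed by −0.30 and −0.26 (adjusted p = 0.0896 and 0.0972). Of these 7 probe sets, those of EP400 and SMARCC2 201321_s_at were also called at 6 h alone, and none was called at 24 h alone. In the brightest probe sets of ARID1A, SMARCA4 and CHD9 the changes differed by −0.25, −0.10 and −0.19, without a call. The CHD9 value was thus opposite to that of 235388_at. SMARCC1 201072_s_at, opposite to 201074_at, differed by 0.41 (adjusted p = 0.2, 0.0306 with the block).

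**Figure D4:**
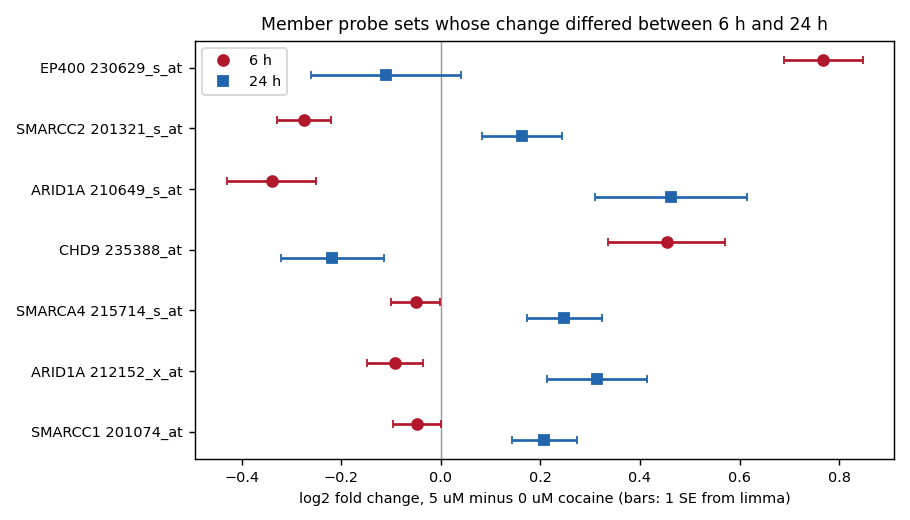
Change in log2 signal between 5 µM and 0 µM cocaine (x axis, bars 1 SE from limma) at 6 h (red circles) and 24 h (blue squares) for the 7 member probe sets whose change differed between times. EP400 230629_s_at (0.77 and −0.11) and CHD9 235388_at (0.45 and −0.22) lie right of 0 at 6 h and left at 24 h. The other 5 lie left of 0 at 6 h and right at 24 h.

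A list of 70 further genes was looked at in the same way, and 67 of them had a probe set tested at 6 h. They encode further subunits of the same complexes, H2A.Z histones, and other SNF2-type enzymes and partners. At 5 µM, 4 of their 134 probe sets rose and 1 fell, or 3.73% in all, against 2.98% of all probe sets. The rises were in YY1 213494_s_at, by 0.50, NFRKB 237209_s_at, by 0.47, RSF1 223818_s_at, by 0.50, and MORF4L2 243857_at, by 0.71 (limma adjusted p = 0.0211, 0.0358, 0.061 and 0.0988). YY1 and NFRKB are INO80 subunits, RSF1 is a partner of SNF2H, and MORF4L2 belongs to the EP400 (NuA4-type) complex. YY1 had 6.28, 6.25 and 6.42 in 5 µM cells, against 5.82, 5.82 and 5.83 in untreated cells, the tightest untreated group of the 4. YEATS4, the histone-acetyl reader of the EP400 and SRCAP complexes, fell by 0.40 in its brightest probe set, 218911_at, with 7.71, 7.61 and 7.78 in 5 µM cells, against 8.09, 8.18 and 8.02 in untreated cells (adjusted p = 0.0788). Without the block, no rise was in the brightest probe set of its gene, and with it 1 was, RSF1 222540_s_at, which differed by 0.24 (adjusted p = 0.209, 0.097 with the block). The 27 probe sets of NuRD subunits other than CHD3 and CHD4, with CHD5 among them, gave no call. Nor did the 8 of further SWI/SNF subunits or the 21 of other SNF2-type enzymes and partners. With the block, 13 of the 134 were higher and 16 lower, or 9.7% and 11.9%, against 7.75% and 10.9% of all. They include 2 higher and 5 lower of NuRD, 0 and 2 of SWI/SNF, 2 and 3 of the other SNF2-type list, 4 and 1 of ISWI partners, and 5 and 5 of the INO80, SRCAP and EP400 complexes. All 8 of the SWI/SNF list, which belong to 5 genes, had a difference below 0, with a median of −0.10. Of all 22455 probe sets tested, 12268 were below 0, with a median of −0.02. At 24 h limma called no probe set of the 70 genes, and at 5 µM 12 of 144 had an unadjusted p under 0.05, or 8.33%, against 7.2% of all.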

How the data were processed

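The log2 values deposited by the authors were used as given: per the study's methods they had been background-corrected, normalised by RMA and summarised by median polish, with 6 h and 24 h handled apart, so levels were not compared between times. Probe sets were named from the platform annotation, in which 41091 of 54675 probe sets carry 1 symbol and 1801 several. The signal minimum and the threshold follow the study's methods, but taking the minimum over the 9-array average of each time is a reading of them made here, and the number of probe sets it keeps is not that of the study. Only probe sets with a symbol and an average beyond log2(40) entered limma 3.58.1 (R 4.3.3), all 3 doses in 1 model for each time, 2-sided, at a Benjamini-Hochberg adjusted p under 0.10. The fit was tested on simulated data with noise independent between arrays, so that test does not cover the correlation between same-numbered pools given below. The changes planted in it were larger than most of those called here. Members and lists were chosen with earlier results of these data known. Members named are those called, plus uncalled ones for each complex. Pool numbers come from the titles and were shared by all doses, and deviations from group means correlated between same-numbered arrays by 0.377 to 0.768 at 6 h and 0.424 to 0.733 at 24 h (9 pairs each), against −0.632 to 0.0711 and −0.575 to 0.165 (18 pairs each) between differently numbered ones. The fit with the pool number as a block was an alternative, as were other signal filters, scalings, arrays and probe sets per gene. With 3 arrays against 3, an exact permutation test cannot go below 0.1, so only the fit over all probe sets was used. The number of arrays limits the precision. Promoters came from RefSeq (GRCh38.p14) by symbol for 35 of 44 members and were searched on both strands; BPTF, ARID2, SMARCC1, ACTL6A, SMARCC2, BAZ1A, CHD6, CHD7 and ATRX have no entry. Figures were drawn with matplotlib 3.10.9.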

Additional observations from a re-analysis of the deposited data

Results flagged for a closer look

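The change after 5 µM cocaine differed between 6 h and 24 h, by a test of the difference itself (limma, adjusted p under 0.10), for 7 member probe sets. The difference of the changes, 6 h minus 24 h, was 0.88 for EP400 230629_s_at and 0.67 for CHD9 235388_at. It was −0.44 for SMARCC2 201321_s_at, −0.80 for ARID1A 210649_s_at, −0.41 for ARID1A 212152_x_at, −0.30 for SMARCA4 215714_s_at and −0.26 for SMARCC1 201074_at. Some other probe sets of EP400, CHD9 and SMARCC1 went the opposite way, without a call by limma. The first 5 µM array and the third of 24 h lay above the second in both ARID1A probe sets, in SMARCA4 215714_s_at and in EP400 230629_s_at. Groups of 3 arrays were not searched for single outlying arrays.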

How the results depend on the processing

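At 5 µM against untreated cells at 6 h, 4 member probe sets were higher and 4 lower. The replicate block gave 13 and 15, and at 1 µM 4 and 10, where there were 0 without it; at 24 h and between the doses it changed no count of member calls. The lower count was 1 with no signal filter or with quantile normalisation and 8 with each array centred on its median. A fit of only the 6 arrays compared gave 1 higher and 0 lower, and brightest probe sets alone 0 and 1. Leaving out 1 array gave 0 to 7 higher and 0 to 9 lower at 5 µM, 0 to 2 and 0 to 5 at 1 µM, and 0 in the other comparisons. Without untreated arrays 2 and 3 of 6 h, a setting chosen after seeing the data that assumes the lone untreated array to vary like the others, it gave 0 and 0.

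The 7 probe sets that differed between 6 h and 24 h became 23 with the block, 4 with no signal filter or with quantile normalisation, 11 with a signal minimum of 100 or median centring, and 1 with brightest probe sets alone. Chosen after seeing the data, leaving out untreated arrays 2 and 3 of 6 h gave 1 and untreated array 3 of 24 h gave 10. The calls at 5 µM against untreated cells at 6 h were followed too, arrays left out aside. There EP400 230629_s_at kept its call in the 6 other settings that could give it (limma adjusted p 0.0119 to 0.0743). SMARCC2 201321_s_at kept its 6 h call in 6 of 7, SMARCC1 201072_s_at in 5 of 6, BPTF 231953_at in 4 of 5 and CHD4 201183_s_at in 3 of 6. BAZ2B, ACTL6A and SMARCA5 kept theirs in 3 of 7 each. The cause was not tested.

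Uncalled values near 0 changed sign. With median centring CHD4 201184_s_at was −0.015. With quantile normalisation SMARCA4 208794_s_at was 0.021, INO80 0.019, ATRX 208861_s_at 3.9e-05 and HELLS 227350_at 0.0045. Without untreated arrays 2 and 3, SMARCB1 was −0.025, ARID1A 218917_s_at 0.010, INO80 0.0080, ATRX 208861_s_at 0.044 and HELLS 227350_at 0.16. Over single arrays left out, CHD4 201184_s_at ranged between −0.031 and 0.037, HELLS 227350_at between −0.14 and 0.054, and INO80 between −0.034 and 0.021. No called member changed sign.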
